A study of Homo sapiens with 12 samples.

Results

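The long intergenic noncoding RNA genes whose symbols consist of LINC and a number were examined for binding by QKI in a human embryonic kidney cell line. Members were chosen by name alone. A cluster of crosslinked reads in either anti-QKI library belonged to the set when the authors' gene name for it was made of LINC and digits. The name LINC00471 was left out of the set. In endogenous library 1, 4399 of 384347 clusters met this rule, and in endogenous library 2, 2683 of 231844 did. Same-strand clusters of the 2 libraries with 1 base or more in common were merged, over all genes, into 493706 loci, of which 5684 carried a LINC name. These loci bore 253 LINC names, out of 20882 names of any kind in the annotation.

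The libraries are eCLIP, in which ultraviolet light links a protein to the RNA it touches, the protein is immunoprecipitated, and the attached RNA is sequenced, with an input of the same fragment sizes as the reference. There were 12 libraries, 6 immunoprecipitations and 6 inputs, and the 6 immunoprecipitations form 3 groups of 2. The wild type group was HEK293T cells transiently transfected with 10 µg of a plasmid for myc-QKI-5 and precipitated with anti-MYC. The mutant group received myc-QKI-5(K120A; R124A), also with anti-MYC. The endogenous group was unmodified HEK293T cells precipitated with anti-QKI. Transfected cells were grown for 72 h before crosslinking at 254 nm and 400 mJ/cm2. The labels do not say that the transfected cells lacked their own QKI, nor that a group's libraries derive from different cultures, so every spread given here is between libraries and may be technical. The labels name the cells HEK293xT and HEK293T, whereas the series' design note describes stem cells on the way to heart muscle. Clusters named for 7 of 10 listed HEK293 or embryonic kidney genes were present. LIN28B (96 and 55 in endogenous libraries 1 and 2) and EYA1 (86 and 56) had the most, and PAX8, LHX1 and GATA3 had none. Of 10 pluripotency genes only DNMT3B had any (23 and 10), and POU5F1, NANOG and SOX2 had none. Of 9 cardiomyocyte genes 4 had clusters: RYR2 (66 and 29), ACTN2 (32 and 18), TTN (2 and 2) and NKX2-5 (0 and 1). TNNT2, MYH6 and MYH7 had none. Enriched clusters were named for 3 of the kidney, 2 of the cardiomyocyte and 0 of the pluripotency genes.

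QKI belongs to the STAR family of RNA-binding proteins, which read short single-stranded motifs through a KH domain, and its preferred element has an ACUAA core. Its isoform QKI-5 stays in the nucleus, where it binds introns and regulates splicing and the formation of circular RNA. LINC transcripts are spliced and polyadenylated like messenger RNA but have no long open reading frame, and many are retained in the nucleus. Some host microRNAs or circular RNAs, and some once named LINC have since been given a functional name or been recognised as part of a neighbouring gene.

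Each cluster came with the authors' log2 fold of immunoprecipitated over input reads and a −log10 p. A locus was called enriched in a library when its cluster there reached 3 both in log2 fold and in −log10 p. The deposited lists of the transfected cells hold clusters with a log2 fold above 0 only, so a locus without a value in them has no cluster above input there, and its fold is unknown. The 6 lists hold 226962 to 384347 clusters each, and the read depth is not given with them. The folds moved in steps, as ratios of few reads do: over the 1761 LINC loci with names of narrow span (defined next) that endogenous library 2 listed, 144 different values occurred, and 24.0% of these loci shared 1 value.

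The name LINC did not always mark a separate gene. For 239 of the 253 names all loci lay within 593 kb, with a median span of 4.26 kb. The other 14 names were spread over 4.28 to 185 Mb of their chromosome, and no name lay between 593 kb and 4.28 Mb. LINC01060 and LINC01262 shared the same 627 loci, spread over 185 Mb of chromosome 4. LINC00574 had 395 loci over 168 Mb of chromosome 6, and LINC01515 had 277 over 66.5 Mb of chromosome 10. Loci of these widely spread names usually carried other names as well, such as RNF4 at chr4:2556534-2556703 and TRAF3IP2-AS1 at chr6:111857503-111857727. In all, 1918 of the 5684 loci (33.7%) had only widely spread names, and 3766 had at least 1 name of narrow span. A limit of 1 Mb, set after the spans were seen, separates the 2 kinds below, and the genes described singly are mainly those of narrow span. Most names of narrow span were thinly covered: 77 of the 253 names had a single locus, and the median name of narrow span had 3. Current RefSeq (GRCh38.p14) knew 251 of the names, 48 of them under another symbol, and 10 names now belong to protein-coding genes.

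**Figure D1:**
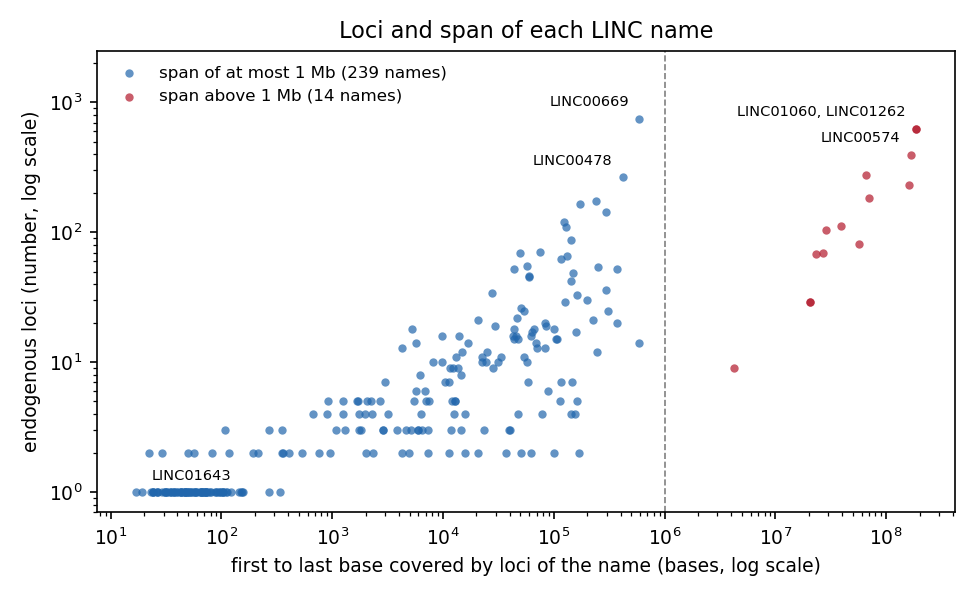
Each point is 1 of 253 LINC names, with the span of its loci in bases on the x axis and its number of endogenous loci on the y axis, both on log scales. The 239 names left of the dashed line (1 Mb) reach 593 kb at most, and the 14 names right of it start at 4.28 Mb.

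LINC loci were intronic for the most part. The annotation placed 4744 of the 5684 (83.5%) in distal introns of noncoding genes, 199 in introns close to an exon, 675 (11.9%) in noncoding exons, and 27 and 23 at 3′ and 5′ splice sites. Only 85 loci also overlapped a region of a coding gene on the same strand. Both endogenous libraries listed a cluster at 1209 loci, and 2945 of the 3766 loci with names of narrow span were listed by only 1 of them.

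More LINC loci were enriched in the endogenous libraries than with wild type myc-QKI-5, and almost none with the mutant. The loci were built from endogenous clusters alone, so the place of the endogenous group in this order is partly set by that choice. In the endogenous libraries 118 and 113 of the 5684 LINC loci were enriched, which is 2.08% (95% Clopper-Pearson interval 1.72% to 2.48%) and 1.99% (1.64% to 2.39%). Over all 493706 loci the shares were 2.64% and 2.16%. The LINC share was below the share over all loci in both endogenous libraries, although in library 2 the interval includes it. With wild type protein 37 and 44 LINC loci were enriched, 0.651% and 0.774%, against 0.886% and 0.928% of all loci. With the mutant 1 and 0 LINC loci were enriched, against 0.00972% and 0.0488% of all loci. The count of 0 of 5684 allows a share of up to 0.0649% by the same kind of interval. These intervals and limits cover counting error only. The mean count of enriched LINC loci was 115.5 ± 3.54 (SD, n = 2) in the endogenous group, 40.5 ± 4.95 in the wild type group and 0.5 ± 0.707 in the mutant group. The groups did not overlap, and with 2 libraries against 2 an exact two-sided permutation test cannot give a p below 0.333.

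The same order held within the LINC set. Loci with names of narrow span were enriched in 2.12% and 2.07% of cases in the endogenous libraries and in 0.664% and 0.797% in the wild type libraries. Loci with widely spread names only gave 1.98% and 1.82%, and 0.626% and 0.730%. LINC exons of narrow-span names were enriched in 1.84% and 1.01% of 597 loci in the endogenous libraries, against 2.19% and 2.32% of 3109 loci in their introns. Introns of other noncoding genes gave 2.24% and 1.87%, and distal introns of coding genes 2.69% and 2.21%. LINC00669, described below, had 3.75% and 4.15% of its 747 loci enriched in the endogenous libraries. Without it, the narrow-span names gave 1.72% and 1.56% of 3019 loci there, below both of these kinds of intron. In the wild type libraries they gave 0.596% and 0.861%. Taken as a whole, LINC loci were thus enriched about as often as introns elsewhere, with a part of that share from 1 gene. These shares are not a result about the LINC genes.

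**Figure D2:**
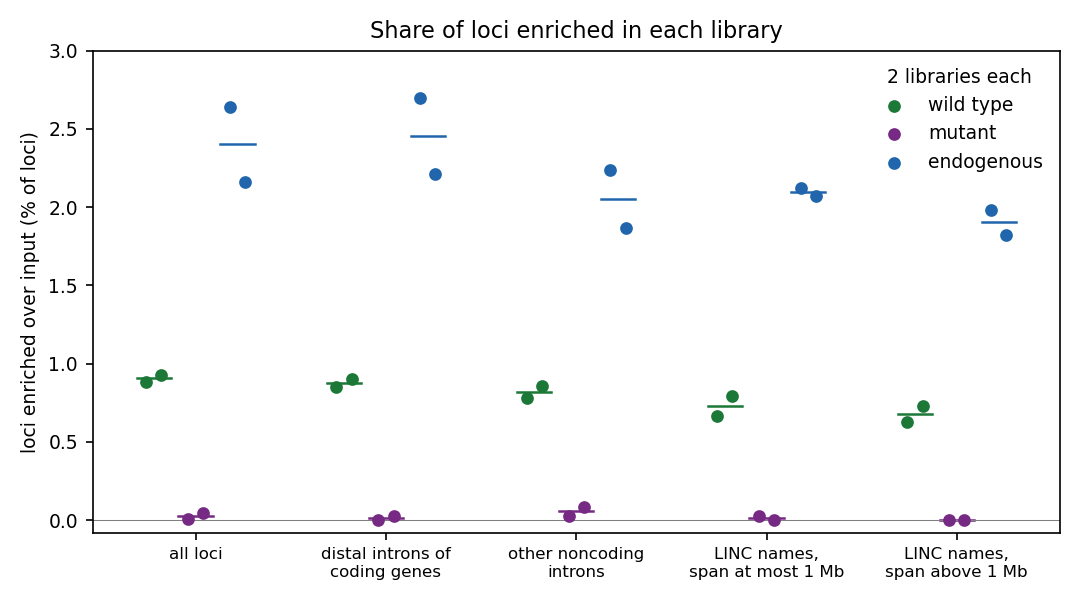
Points are the percent of loci enriched over input (both log2 fold and −log10 p at 3 or more) in each of 2 libraries per group, and short lines are their means, for all loci, 2 kinds of intron and the 2 kinds of LINC name. In every set shown the endogenous points sit highest, the wild type points lie below 1%, and the mutant points lie near 0. The loci were built from endogenous clusters, so the place of the endogenous points is partly set by that choice.

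Being listed at all separated the groups less than being enriched. Of the 5684 LINC loci 17.2% and 18.5% had a wild type cluster (libraries 1 and 2), and 9.76% and 11.01% had a mutant one. Over all loci these shares were 18.2% and 19.2%, and 9.43% and 10.96%. Of the 3766 loci with names of narrow span, 335 were listed in both wild type libraries, and 248 of these in neither mutant library. Of the 108 that were enriched in either endogenous library, 74 were listed in both wild type libraries and 5 in both mutant libraries. The 108 were chosen by the endogenous libraries. Neither these counts nor the 335 and 248 were made over all loci, so none is a result about the LINC genes.

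The authors also deposited, for each pair of libraries, a list of reproducible peaks. LINC names fell on 113 of the 12409 endogenous peaks, on 32 of the 3671 wild type peaks, and on 0 of the 55 mutant peaks. Of the 113, 79 had a name of narrow span, at 23 genes, and since neighbouring peaks often abut, these 79 formed 60 groups when peaks within 1 kb were joined. Of the 32, 23 had one, at 12 genes, in 20 such groups. At 10 genes both lists had a peak. The 67 loci of narrow-span names under an endogenous peak comprised 61 intronic and 6 exonic ones, and none overlapped a coding gene region on its strand. Their median length was 152 bases, against 56 bases over all loci of narrow-span names.

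Wild type peaks often lay on an endogenous peak, and endogenous peaks less often on a wild type one. Of the 32 wild type LINC peaks 20 (62.5%) overlapped an endogenous peak, as 68.2% of all wild type peaks did. Of the 113 endogenous LINC peaks 23 (20.4%) overlapped a wild type peak, as 24.3% of all did. For names of narrow span the shares were 16 of 23 (69.6%) and 18 of 79 (22.8%). At the 113 endogenous LINC peaks, which were chosen without the myc libraries, a wild type cluster was listed at 99 in each library (87.6%), against 84.9% and 81.4% of all endogenous peaks. It was enriched at 29.2% and 24.8% of them, against 28.4% and 25.6% of all. A mutant cluster was listed at 12.4% and 11.5%, against 9.90% and 10.3% of all. It was enriched at 3 LINC peaks in mutant library 1, which are pieces of 1 locus, and at 0 in mutant library 2. The count of 0 allows up to about 2.65%, taken as 3 counts over the 113 peaks, a rougher limit than the intervals above. The LINC shares thus lie close to those of all endogenous peaks.

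Over the 79 endogenous peaks of narrow-span names the log2 folds ran from 2.19 through a median of 4.09 to 7.29 in endogenous library 1, and from 2.15 through 4.09 to 7.21 in library 2. Wild type library 1 listed 69 of them, with folds from 0.41 through 2.41 to 6.72, and wild type library 2 listed 69, from 0.02 through 2.27 to 6.14. At 62 peaks both wild type libraries had a cluster. In 43 of these both endogenous folds exceeded both wild type folds, in 1 the reverse held, and in 18 the groups overlapped. The peaks had been chosen for a high endogenous fold, so this order is partly set by the choice. Over all 12409 endogenous peaks the median folds were 4.09 and 4.12 in the endogenous libraries and 2.58 and 2.53 in the wild type ones. The counts of 43, 1 and 18 were not made over all peaks, so they are not a result about the LINC genes. Of the 79 LINC peaks, mutant libraries 1 and 2 listed 8 each, and 67 had no cluster in either. As a description across these peaks, Pearson's r was 0.47 between the 2 endogenous libraries (79 peaks), 0.76 between the 2 wild type libraries (62 peaks), and 0.52 and 0.58 between endogenous and wild type libraries (69 peaks each). Abutting peaks share clusters, so these points are not independent.

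LINC00669 held more QKI peaks than any other LINC name. This gene, whose current RefSeq symbol is MIR924HG, is a long host transcript of a microRNA, on the minus strand of chromosome 18, with 747 loci between 36787321 and 37380225 (hg19). Its 32 endogenous peaks are 40.5% of the 79 of narrow-span names, while its loci are 19.8% of theirs. They formed 23 groups within 1 kb of each other, spread over 481 kb, with a median gap of 6.22 kb and a largest gap of 82.6 kb. All lay in introns. Per 100 loci LINC00669 had 4.28 endogenous peaks, and LINC00894 4.27, LINC01158 3.85, LINC00630 3.50 and LINC00472 3.45, so per locus LINC00669 did not stand apart from these genes. Of the 16 narrow-span names with at least 50 loci, LINC01456 (66 loci) and LINC00174 (62 loci) had no reproducible peak in any list, and LINC00882 had a wild type one only.

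At the 32 LINC00669 peaks the log2 fold ran from 2.40 through a median of 4.10 to 5.72 in endogenous library 1, and from 2.33 through 3.96 to 6.47 in library 2. Wild type library 1 listed 28 of the peaks at 0.58 to 3.98 with a median of 2.44, and library 2 listed 25 at 0.02 to 4.22 with a median of 1.86. Mutant library 1 listed none and mutant library 2 listed 2, at 0.11 and 0.47. All 4 wild type peaks of the gene overlapped an endogenous one. The highest endogenous fold was at the locus chr18:37035645-37035870, with 5.49 and 6.47 in the endogenous libraries, 3.50 and 4.22 in the wild type libraries and no mutant cluster. Every endogenous value there lay above every wild type value, and all 4 were above the enrichment threshold. A neighbouring locus, chr18:37055813-37056066, had 5.72 and 6.16 against 3.35 and 2.59, with 0.47 in mutant library 2.

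**Figure D3:**
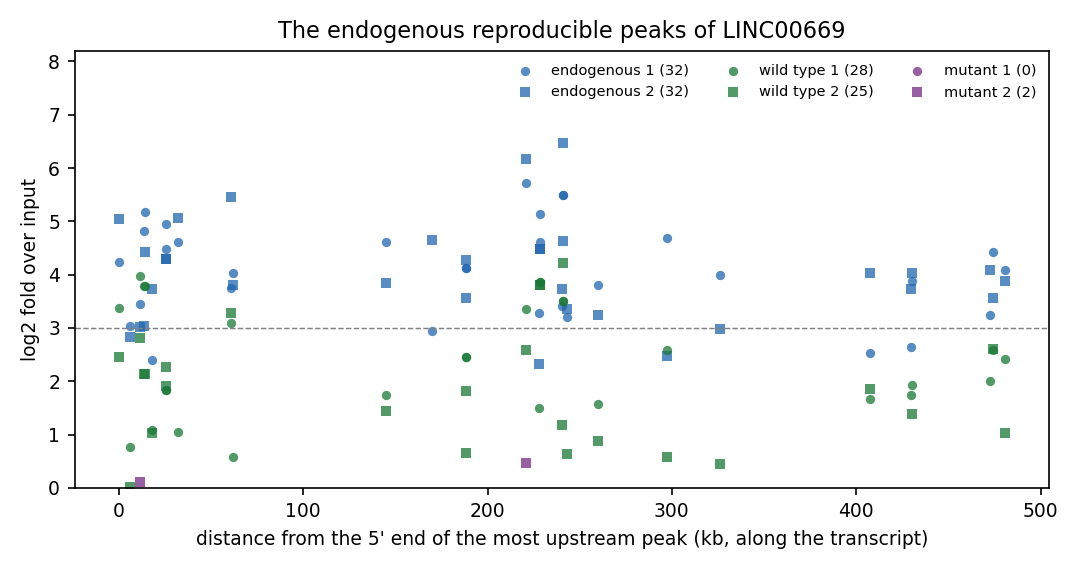
Log2 fold over input (y axis) of each library's cluster at the 32 endogenous reproducible peaks of LINC00669, by distance in kb along the transcript from the most upstream peak (x axis). The dashed line is the enrichment threshold of 3. Endogenous points lie mostly above it, wild type points mostly below it, and mutant library 2 has 2 points under 0.5.

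LINC01021 had the single highest endogenous and wild type peak of all LINC names. The gene, now PURPL, is known as a p53-induced transcript that restrains p53 itself. Its locus chr5:27474897-27475091 on the plus strand, in a distal intron, had log2 folds of 7.29 and 7.21 in the endogenous libraries, 6.72 and 5.87 in the wild type libraries, and no cluster in either mutant library. The endogenous mean was 7.25 ± 0.06 and the wild type mean 6.30 ± 0.59 (SD, n = 2 each), and the 2 groups did not overlap. An adjacent locus, chr5:27474723-27474880, had 4.53 and 4.36 against 3.06 and 3.58, again with no mutant cluster. LINC01021 had only 16 loci over 13.9 kb, and 3 endogenous and 2 wild type peaks lay at these 2 of them.

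LINC01643 was the one LINC locus enriched with the mutant protein. Its only locus, chr22:34558591-34558619 on the plus strand, is 29 bases long and intronic. No endogenous cluster there had LINC01643 as its sole name in the annotation. It read 4.44 and 6.97 with endogenous QKI, 5.52 and 6.14 with wild type myc-QKI-5, and 6.08 and 2.69 with the mutant. The 3 groups overlapped, and mutant library 1 was as high as the wild type libraries while mutant library 2 fell below the threshold. Both the endogenous and the wild type list cut this locus into 3 abutting peaks, which the counts of peaks above include.

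Several other intronic peaks were about as high with wild type myc-QKI-5 as with the endogenous protein. LINC00674 at chr17:66100947-66101133 had 5.15 and 5.26 with wild type myc-QKI-5 and 4.33 and 3.99 with the endogenous protein, with 0.61 in mutant library 1. Both wild type values there exceeded both endogenous values. LINC01036 at chr1:187121473-187121603 had 4.22 and 4.80 against 4.45 and 3.81, and the groups overlapped. LINC00491 at chr5:101979482-101979642 had 3.18 and 4.57 against 3.51 and 3.27, which also overlapped. LINC01351, now BRINP3-DT, a transcript divergent from the gene BRINP3, had an exonic locus at chr1:190450257-190450328 with 4.50 and 4.61 against 4.21 and 5.24. None of LINC01036, LINC00491 and LINC01351 had a mutant cluster at these loci.

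Other peaks were high in the endogenous libraries and lower in the wild type ones. LINC01687 at chr21:23438288-23438488 had 5.39 and 5.37 in the endogenous libraries and 3.50 and 2.61 in the wild type libraries. LINC01876 at chr2:156868422-156868710, in an intron next to an exon, had 5.37 and 4.96 against 2.55 and 1.73. LINC01605 at chr8:37324224-37324383 had 5.04 and 4.65 against 2.32 and 1.25. At all 3 of these loci the endogenous values lay above the wild type values without overlap, and no mutant cluster was listed.

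The X-linked LINC00630 was the gene richest in wild type peaks. It had 6 wild type and 5 endogenous peaks among 143 loci over 298 kb, at 9 loci in all, every one intronic. The 2 lists met at 2 loci: chr X 102053093 to 102053130, with 4.11 and 3.02 in the wild type and 3.67 and 4.21 in the endogenous libraries, and 102093603 to 102093732, with 2.73 and 4.87 against 3.24 and 3.69. At both the groups overlapped. The locus 102119414 to 102119565 was endogenous only, with 4.89 and 5.21 against 2.84 and 2.96. The locus 101865331 to 101865569 was in the wild type list only, with 4.22 and 3.30 against 2.90 and 3.11. The second of the shared loci had mutant values of 0.83 and 0.37.

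LINC00894, also X-linked and now EOLA2-DT, had 7 endogenous peaks at 6 loci and no wild type peak. Its highest locus was an exonic one, chr X 149132402 to 149132499, with 4.20 and 4.47 in the endogenous and 2.41 and 3.27 in the wild type libraries. The intronic locus 149134144 to 149134269 had 4.21 and 3.61 against 0.41 and 0.15. At the latter the wild type libraries were barely above input. No mutant cluster was listed at either.

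LINC00472 had 3 endogenous peaks, all 3 in exons, unlike most of the set. At chr6:72124503-72124638 it had 4.10 and 5.79 in the endogenous libraries and 2.22 and 1.61 in the wild type libraries. At chr6:72111009-72111132 it had 4.86 and 3.69 against 1.80 and 2.98. At chr6:72100659-72100795, its only wild type peak, it had 4.43 and 4.37 against 4.66 and 2.33, and the groups overlapped. None of the 3 loci had a mutant cluster. LINC00632, the transcript from whose locus the circular RNA CDR1as arises, had 1 wild type peak at the locus chr X 139802635 to 139802723, with 3.22 and 4.01 against endogenous folds of 2.26 and 2.07. Its 1 endogenous peak was at the nearby locus 139803084 to 139803221, with 2.68 and 4.18 against wild type folds of 2.06 and 3.23, and there the groups overlapped.

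LINC00478, now MIR99AHG, hosts let-7c, miR-99a and miR-125b-2 and had 265 loci over 419 kb. Its 4 endogenous peaks lay at 3 intronic loci, the highest at chr21:17952722-17952935 with 5.03 and 5.02 in the endogenous and 2.11 and 3.83 in the wild type libraries. A locus at chr21:17929691-17929844 read 4.56 and 2.15 against 4.27 and 3.53, so the endogenous libraries differed from each other more than the groups did. LINC01572 had 3 endogenous peaks among 173 loci, the highest at chr16:72550359-72550502 with 4.54 and 4.61 in the endogenous libraries, 2.22 in wild type library 1 and 0.83 in mutant library 1. A second, at chr16:72648955-72649099, had 4.56 and 4.32 against 3.11 and 2.76.

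Clusters at let-7c and miR-125b-2 inside LINC00478, and at miR-924 inside LINC00669, carry the microRNA's name in the annotation and are therefore not members of the set. Their mature sequences from RefSeq (GRCh38.p14) are shown because they mark the part of each host transcript that leaves as a microRNA; capitals mark the seed, bases 2 to 8.
let-7c-5p: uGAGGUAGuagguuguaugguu
miR-125b-5p: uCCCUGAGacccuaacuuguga
miR-924: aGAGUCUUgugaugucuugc
The 3 seeds differ from one another. The let-7c clusters had log2 folds of 0.84 and 1.15 in the endogenous libraries, those of miR-125b-2 0.84 and 1.89, and those of miR-924 −0.16 and 0.56, none of them enriched. They lay 10.2 to 17.5 kb from the nearest endogenous peak of the host. No wild type cluster overlapped any of the 3, and a mutant cluster overlapped only that of miR-924, at 0.19. At these hosts the peaks lay in introns away from the microRNAs.

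Wild type peaks without an endogenous counterpart still had log2 folds above 0 in the endogenous libraries, mostly with a weak −log10 p. There were 7 such peaks with names of narrow span, 4 in LINC00630 and 1 each in LINC00632, LINC00351 and LINC00882. All 7 were listed in both endogenous libraries, with log2 folds from 2.07 to 3.65. Their −log10 p there ran from 0.82 to 6.90, and only LINC00630 at chr X 101865331 to 101865569 reached the threshold of 3. The highest wild type fold among them was in LINC00351, at chr13:86052732-86052876, with 4.06 and 4.65 against 2.72 and 2.56. LINC00882, in an exon at chr3:106615552-106615664, had 3.73 and 4.08 against 3.26 and 2.89. In both genes the wild type values lay above the endogenous values.

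Among widely spread names, LINC00574 had 12 endogenous and 4 wild type peaks, LINC01060 and LINC01262 jointly had 10 and 1, and LINC01515 had 7 and 1. Of the LINC00574 peaks, 5 endogenous ones and 1 wild type one were also named LINC01015. The highest peak under a widely spread name, at chr4:2556534-2556703, lies where the annotation also names RNF4, a ubiquitin ligase, and had 4.98 and 6.69 in the endogenous and 4.46 and 2.25 in the wild type libraries. LINC00588 had a locus at chr8:12246701-12246836, also named FAM66A, with 4.49 and 4.32 against 4.32 and 5.11. These peaks are QKI peaks in noncoding introns, and which gene they belong to cannot be read from the LINC name.

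The wild type and mutant libraries were compared by limma, which asks whether the fold of a region differs between groups beyond the spread between libraries. Only regions with a cluster in all 4 libraries could be fitted, 5481 in all, of which 39 had a LINC name (28 of narrow span). Over all regions 36 (0.657%) were higher with the wild type and 1 (0.0182%) lower at an adjusted p of at most 0.05. No LINC region passed in either direction by limma, and 3 were higher and 3 lower at an unadjusted p under 0.05. At that unadjusted limma p 280 of all 5481 regions were higher and 398 lower. The median difference, wild type minus mutant, was −0.51 on the log2 scale over the LINC regions and −0.26 over all regions, and 12 of 39 LINC regions (30.8%) were positive against 35.9% of all. With each library centred on its own median these medians were −0.24 and 0.01. The test leaves out every region that the mutant libraries did not list, which includes most LINC peaks described above.

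Of the LINC regions that could be tested, LINC00632 came closest. The region chr X 139802624 to 139802854 had log2 folds of 3.22 and 4.01 with the wild type and 0.12 and 1.11 with the mutant. The groups did not overlap, and limma gave a difference of 3.001 (SE 0.57) with an adjusted p of 0.0774. The region passed without wild type replicate 1 (limma adjusted p = 0.00915), with centring (0.0182), with a filter on −log10 p (0.0233) and with all 6 libraries in the fit (0.00691). Over all alternatives its adjusted p ran from 0.00691 to 0.152. In LINC00630 the region chr X 102093614 to 102093710 had 2.73 and 4.87 against 0.83 and 0.37, a difference of 3.20 (SE 0.72, limma adjusted p = 0.139). It passed without wild type replicate 1 (limma adjusted p = 0.000157), with the filter (0.0372) and with all 6 libraries (0.0120), and its adjusted p ran up to 0.398 without wild type replicate 2.

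The endogenous and wild type libraries differ in antibody and in transfection at once, so the effects of the 2 cannot be told apart. Of 29835 regions with a cluster above input in all 4 libraries, 2266 (7.60%) were higher in the endogenous group and 162 (0.543%) lower by limma at an adjusted p of at most 0.05. Of the 350 LINC regions among them (228 of narrow span), 27 (7.71%) were higher and 0 lower, and at an unadjusted p under 0.05 there were 92 higher and 6 lower. At that unadjusted limma p 6922 of all 29835 regions were higher and 912 lower. The share of LINC regions called is close to that of all regions, and is not a result about the LINC genes. The median difference, endogenous minus wild type, was 0.71 over the LINC regions and 0.61 over all, and 72.3% and 70.9% were positive. With each library centred on its own median the count over all regions was 405 higher and 407 lower, and over LINC regions 2 higher and 2 lower, with a median difference of −0.07 over all regions and 0.03 over LINC regions. The number called fell whichever library was left out, over LINC regions and over all regions alike. Such fits leave a group with a single library. Their median difference ran from 0.57 to 0.75 over LINC regions and from 0.58 to 0.64 over all regions.

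Of the 27 LINC regions, 16 had a name of narrow span: 7 in LINC00669 and 1 each in LINC00894, LINC01876, LINC01605, LINC00472, LINC01572, LINC01687, LINC01184, LINC00478 and LINC00630. The largest difference was in LINC00894, at chr X 149134126 to 149134269, where the endogenous folds of 4.21 and 3.61 stood against 0.41 and 0.15 (difference 3.63, SE 0.65, limma adjusted p = 0.00864). It was one of the 2 LINC regions that passed after centring as well. The other was chr4:66874732-66874833, under LINC01060 and LINC01262, with 3.68 and 4.42 against 1.00 and 0.44. Differences in LINC01876 (3.02, SE 0.66, limma adjusted p = 0.0153), LINC01605 (3.06, SE 0.67, 0.0154) and LINC00472 (3.03, SE 0.71, 0.0203) were similar in size. In LINC00669 the largest was at chr18:37055813-37056066 (2.97, SE 0.66, limma adjusted p = 0.0163). After centring, 2 LINC regions were lower in the endogenous group. In LINC00669 it was chr18:37181582-37181778, with 1.37 and 0.56 against 2.37 and 3.61. In LINC01687 it was chr21:23470087-23470252, with 1.06 and 1.56 against 2.87 and 3.96, the opposite direction to that gene's peak above.

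**Figure D4:**
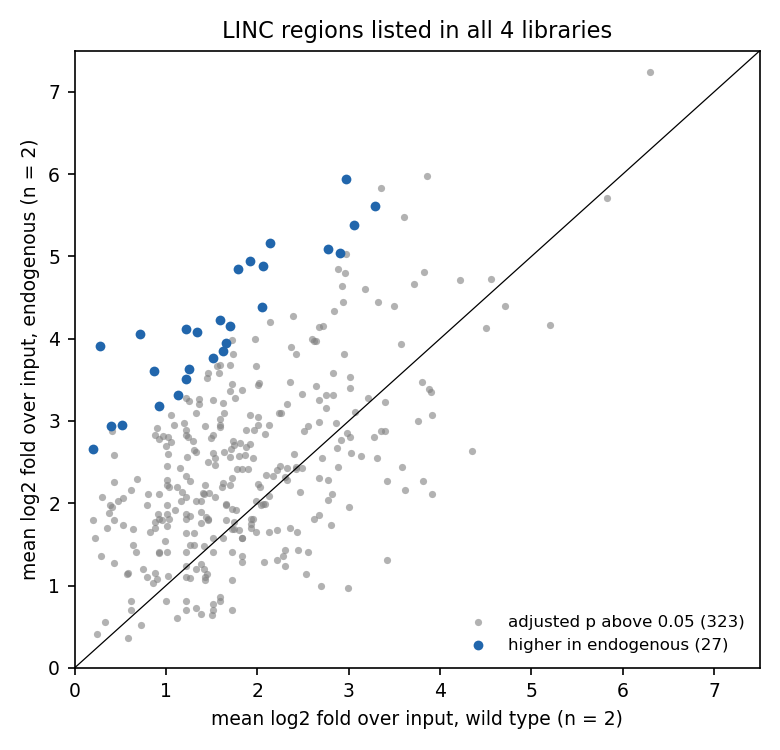
Mean log2 fold over input of the 350 LINC regions listed in all 4 libraries, wild type on the x axis and endogenous on the y axis (n = 2 each), with the line of equality. The 27 regions with a limma adjusted p of at most 0.05 all lie above the line, as do most of the grey points.

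Of 20 LINC transcripts that have been studied by others 13 had a cluster, and 3 had an enriched one: LINC00630, LINC00472 and LINC00473. LINC00473, a transcript induced by cAMP signalling, had 1 enriched cluster in endogenous library 1. The locus there, chr6:166374068-166374219, also carried the names LINC00242 and PDE10A, so it cannot be credited to LINC00473 alone. Its log2 fold was 3.68 in endogenous library 1 and 1.89 in library 2. LINC00657, better known as NORAD, the abundant cytoplasmic transcript that binds Pumilio proteins, had 15 and 10 clusters in the endogenous libraries and none enriched; it is named here after its values were seen. Of 6 LINC names whose RNA is known to encode a small protein 3 had a cluster, and none was enriched. Of both lists together LINC00630 and LINC00472 had a reproducible peak, beside 35 of all 253 LINC names with an endogenous one, so the lists are not shown to differ from the other names.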

How the data were processed

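The clusters are eCLIP regions on hg19, and per the submitters' processing notes UMI-tools, cutadapt, STAR and SAMtools were used, in an order and in versions not given in these sources. The authors deposited for each cluster a log2 fold of immunoprecipitated over input reads and a −log10 p capped at 400, and for each pair of libraries a list of reproducible peaks with the same deposited units. Input libraries were not analysed here. Read depth behind a value is not known, so no fold has a counting interval.

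Endogenous clusters sharing at least 1 base on the same strand were merged into loci, and each library's value is its overlapping cluster with the highest −log10 p. Group comparisons used limma 3.58.1 (R 4.3.3) on the deposited log2 folds, with Benjamini-Hochberg adjustment over all regions listed in all 4 libraries, where overlapping or abutting clusters were joined. Other steps used Python 3.11.15, pandas 2.3.3 and SciPy 1.17.1. On simulated data the wild type against mutant test called 66% of 50 regions shifted by 3 log2 units and 3 of 5281 unshifted ones, and the endogenous against wild type test called 22% of 50 and 2 of 29635.

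Genes are named by a rule: most endogenous peaks, highest endogenous or wild type peaks, 3 or more wild type peaks, regions past limma, and listed transcripts with a peak. The members and lists were chosen with earlier results of these data known. A motif search was not made, since no hg19 genome was used here. RefSeq served only for current symbols and microRNA sequences.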

Additional observations from a re-analysis of the deposited data

How the results depend on the processing

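Some median differences changed sign: wild type minus mutant from −0.51 to 0.63 over LINC regions with missing clusters set to 0, and from −0.26 to 0.01 (centring), 0.03 (all 6 libraries) and 0.06 (missing set to 0) over all regions; and endogenous minus wild type from 0.61 to −0.07 over all regions after centring. Over narrow-span LINC regions wild type minus mutant went from −0.25 to 0.02 (centring) and 0.52 (missing set to 0). For single named regions, 75 recomputed limma differences stayed on their side of the threshold, 25 lost and 8 gained a call. Enriched LINC loci averaged 63.5 (wild type) and 8 (mutant) per library with the fold threshold at 2. With it at 4 the averages were 15.5 (wild type) and 55.5 (endogenous), and at a −log10 p of at least 5 the endogenous one was 76. Among loci with a sole LINC name they were 11.5, 0 and 24.5 (wild type, mutant, endogenous). The mutant count was 0 to 1 with either mutant library left out. LINC regions higher with wild type than mutant numbered 1 of 39 after centring and 2 of 12 with a filter on −log10 p. With all 6 libraries in the fit they numbered 2 of 22. Over all regions these counts were 71 of 5481, 69 of 1253 and 84 of 1701. With missing clusters set to 0 there were 98 of 880 (with 2 lower), against 10860 of 169063 (with 903 lower) over all regions. That setting gives both mutant libraries the same 0. LINC regions higher in endogenous than wild type numbered 2 to 13 with a library left out, 2 (with 2 lower) after centring, 42 (with 2 lower) with the filter, 16 among names of narrow span, 0 when missing clusters were set to 0, and 0 with all 6 libraries, where none of the 27 could be tested. Same-numbered libraries did not deviate together (correlation of deviations −0.0377 and 0.00949). With 2 libraries per group this cannot tell whether they share a batch, and the labels give them only a number in common. With the replicate block the fits called 1 LINC region (wild type against mutant) and 48 higher with 2 lower (endogenous against wild type). Over all regions they called 41 higher with 1 lower, and 3832 higher with 349 lower. Of wild type LINC peaks 90% lay on an endogenous peak when both had a fold of at least 4. A wild type cluster was listed at 82.7% of endogenous LINC peaks under a stricter overlap rule (50% of either), at 91.8% of peaks of fold 4 or more, at 87.3% for names of narrow span and at 90.4% of those without LINC00669. For mutant clusters these were 9.29%, 14.8%, 10.1% and 14.9%. Enriched wild type clusters lay at 42.6% of peaks of fold 4 or more, at 31.9% without LINC00669 and at 37.2% with a fold of 2 as threshold. The cause of these shifts was not tested. The span limit and the setting without LINC00669 were chosen after seeing the data.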
